A study of Mus musculus with 12 samples.

Results

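The genes described here are 10 receptors through which migrating interneurons and growing axons read their surroundings, namely the chemokine receptors Cxcr4 and Ackr3, the neuregulin receptor Erbb4, the Slit receptors Robo1 and Robo2, the semaphorin receptors Nrp1, Nrp2 and Plxna4, and the ephrin receptors Epha4 and Epha5. They were chosen by name from 21951 protein-coding genes, and every H3K4me3 peak within 5 kb of any of their transcript starts annotated in GENCODE M21 was taken, with all coordinates on GRCm38. H3K4me3, trimethylation of lysine 4 of histone H3, marks promoters that are active or poised. It was profiled by CUT&Tag, in which an antibody brings a transposase to the marked chromatin, in tissue from wild-type C57BL/6J mouse embryos. The regions were the medial, lateral and caudal ganglionic eminences (MGE, LGE and CGE) and the somatosensory cortex (CTX). The age is E12.5 by the study's text, while the protocol in the labels also names E14.5 without assigning it to a tissue. There were 2 biological replicates per region, with 100000 nuclei per reaction, deposited as 3 samples for MGE, 2 for LGE, 4 for CGE and 3 for CTX. The replicates of a region were merged before peaks were called, so each region is 1 list, no value has a replicate error and no difference between regions could be tested. The tissue was bulk, so a mark in fewer cells and less of it per cell cannot be told apart.

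Interneurons of the cortex are born in the ganglionic eminences, the CGE and MGE above all, and travel tangentially into the cortex, whereas excitatory neurons are born in the cortex itself. Cxcl12 made by the meninges and by cortical progenitors holds migrating cells in their streams through Cxcr4, while Ackr3 binds and removes the same ligand. Neuregulins attract cells that carry Erbb4, and Slits, class 3 semaphorins and ephrins repel cells that carry Robo, neuropilin with plexin, or Eph receptors.

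The 4 lists differed in ways that bear on all values below. MGE held 25339 peaks with a median width of 563 bp, LGE 17284 peaks of 1168 bp, CGE 17752 peaks of 1240 bp and CTX 21442 peaks of 701 bp. A gene with any peak had a median of 1044 covered bases in the MGE, 1402 in the LGE, 1497 in the CGE and 1088 in CTX. For the receptor genes covered bases are therefore given beside a within-list percentile, the rank of the gene among the 21951 genes of that list, in which a gene with no peak lies at 17.5 to 18.1.

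Markers of the regions sorted the lists only in part as their labels would. GABAergic and MGE genes were least covered in CTX, while the order of the lists differed for some markers between covered bases and percentiles. Nkx2-1 and Lhx8, transcription factors of the MGE, had no peak in CTX, and Lhx6, which MGE-derived interneurons express, had 451 covered bases there against 3057 in the MGE. Nkx2-1 had 3262 bases in the MGE, but also 2934 in the LGE and 3804 in the CGE. These 3 genes had 8385 covered bases in all in the MGE, 7853 in the LGE, 12214 in the CGE and 451 in CTX, but by percentile Nkx2-1 (99.2) and Lhx8 (94.4) were highest in the MGE and Lhx6 (99.7) in the CGE. Their median percentile was 98.9 in the MGE, 95.7 in the LGE, 97.8 in the CGE and 18.1 in CTX. The summed bases of Dlx1, Dlx2, Dlx5, Dlx6 and Gad2, genes of the GABAergic lineage, were 11961, 17850 and 22075 in MGE, LGE and CGE and 4410 in CTX, with median percentiles of 96.2, 98.5, 98.3 and 55.9. The 4 LGE markers Gsx2, Ebf1, Isl1 and Six3 and the 3 CGE markers Nr2f2, Prox1 and Sp8 were marked in all 4 lists, and both groups had their highest sum in the CGE. The LGE markers summed to 8498 covered bases in the MGE, 12972 in the LGE, 18061 in the CGE and 1855 in CTX, and the CGE markers to 7478, 11423, 18658 and 7085. The median percentile of the LGE markers was 78.6, 90.9, 98.9 and 41.3 in the same order, and that of the CGE markers 95.9, 98.1, 97.2 and 95.2. The cortical genes Emx1, Neurod2, Neurod6, Tbr1 and Eomes, all with a peak in all 4 lists, had 1835 summed covered bases in the MGE, 12501 in the LGE and 12412 in the CGE but 7991 in CTX, with median percentiles of 40.5, 95.1, 94.1 and 88.8. Emx1, the most covered of them, had 495 bases in the MGE, 3337 in the LGE, 3453 in the CGE and 2969 in CTX, yet its percentile was highest in CTX (98.5, against 97.2 in the LGE and 96.8 in the CGE). Neurod2 was also highest in CTX by percentile (92.0), and the other 3 cortical genes were highest in the LGE. The part that cells of neighboring tissue, or the depth of each pool, had in the receptor values was not tested. Of other cell types, the 5 microglial markers had no peak in any list. Kdr was the only one of 5 endothelial markers with a peak in all 4 lists, with 1067 to 1294 bases, Pecam1 had 124 bases in the MGE alone, and Cdh5, Tie1 and Tek had none. Foxc1 was the most covered of 5 markers of meninges and pericytes, 3 of which were marked in all 4 lists while Rgs5 was in none, and these markers summed to 1990, 2920, 5434 and 1905 bases in MGE, LGE, CGE and CTX, with median percentiles of 37.9, 39.7, 39.1 and 42.1. Of the hemoglobin genes of red cells, Hba-a1 was marked in 3 lists and Hbb-bs and Hbb-y in none.

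All 10 receptor genes had a peak in all 4 lists. Among all protein-coding genes, 65.0% had a peak within 5 kb of a start in the MGE, 64.2% in the LGE, 64.6% in the CGE and 63.8% in CTX, and 61.3% had one in every list. With that background, presence in 10 of 10 genes describes genes that are marked like most, and the extent of the marking varied more. The median of the receptor genes was 2047 covered bases in the MGE, 2831.5 in the LGE, 2762.5 in the CGE and 1687 in CTX. The median of their percentiles was 94.0, 95.1, 93.3 and 88.4, in the same order. The percentile was above 90 for 7 of the 10 receptor genes in the MGE, 9 in the LGE, 7 in the CGE and 4 in CTX. The plot of covered bases shows each gene by region.

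**Figure D1:**
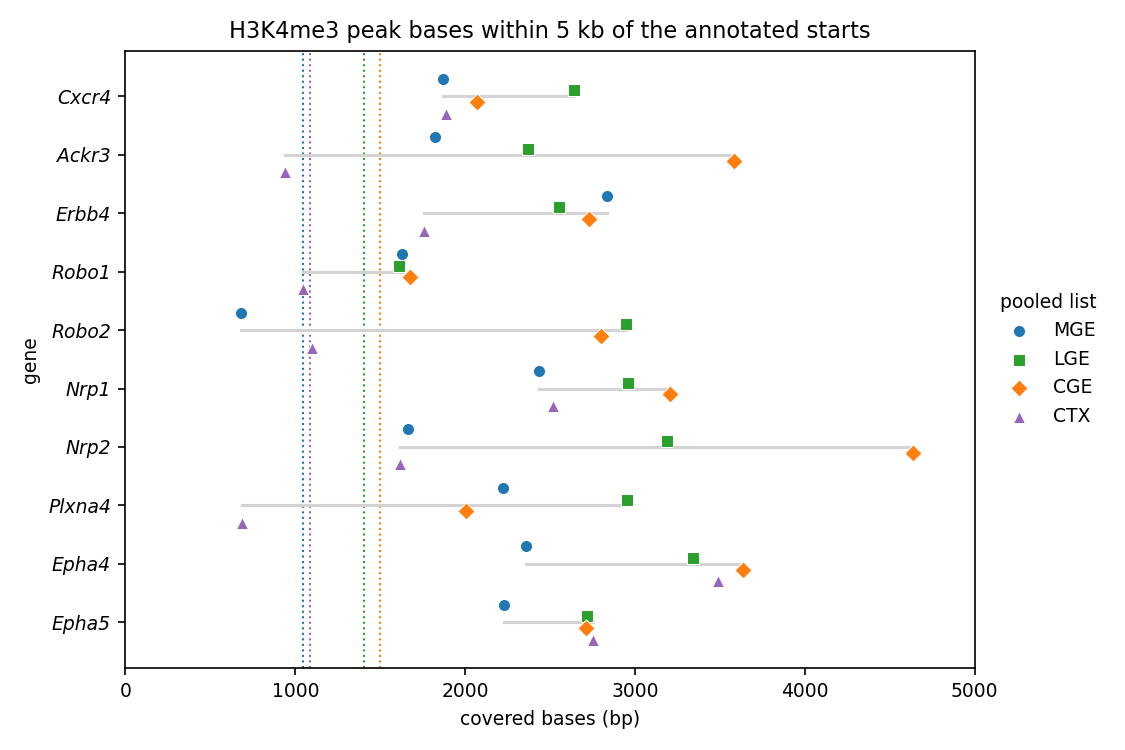
Covered bases (bp, x axis) of each receptor gene (y axis) in the 4 pooled lists, 1 point per list (offset vertically), with a gray line from the lowest to the highest value and a dotted line in each list's color at the median of all genes with a peak in that list. Points left of their own list's median are Robo2 in the MGE (681) and Plxna4 (689), Ackr3 (937) and Robo1 (1048) in CTX.

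By covered bases, 5 genes were highest in the CGE (Ackr3, Robo1, Nrp1, Nrp2 and Epha4), 3 in the LGE (Cxcr4, Robo2 and Plxna4), 1 in the MGE (Erbb4) and 1 in CTX (Epha5). Over all genes with a peak, CGE was highest for 73.5%, LGE for 16.5%, MGE for 4.93% and CTX for 5.04%, so a maximum in the CGE is the common pattern of these lists. By percentile, 2 receptor genes were highest in the MGE (Erbb4 and Robo1), 3 in the LGE, 2 in the CGE (Ackr3 and Nrp2) and 3 in CTX (Nrp1, Epha4 and Epha5), where all genes gave 32.9%, 18.5%, 17.2% and 31.4%. The 7 genes with the same maximum by both measures were Cxcr4, Ackr3, Erbb4, Robo2, Nrp2, Plxna4 and Epha5. Plxna4 was most covered in the MGE with windows of 2 kb (2225 bases, against 1762 in the LGE) and of 1 kb (1442 against 762), and Ackr3 was so with windows of 1 kb by a small margin (1153 bases, against 1127 in the CGE).

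The rank of some genes moved much more between regions than that of others. The percentile of Plxna4 spanned 47.9 points between its lowest and highest list, that of Robo2 47.5, that of Ackr3 37.3 and that of Robo1 21.9. In the other 6 genes the span was 1.32 (Nrp1) to 11.9 (Nrp2). Over the 13463 genes with a peak in every list the median span was 9.27 and 90% of genes were at or below 23.6, so 3 of the receptor genes lay above that point. Plxna4 and Ackr3 were lowest in CTX and Robo2 in the MGE, as the plot of percentiles shows.

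**Figure D2:**
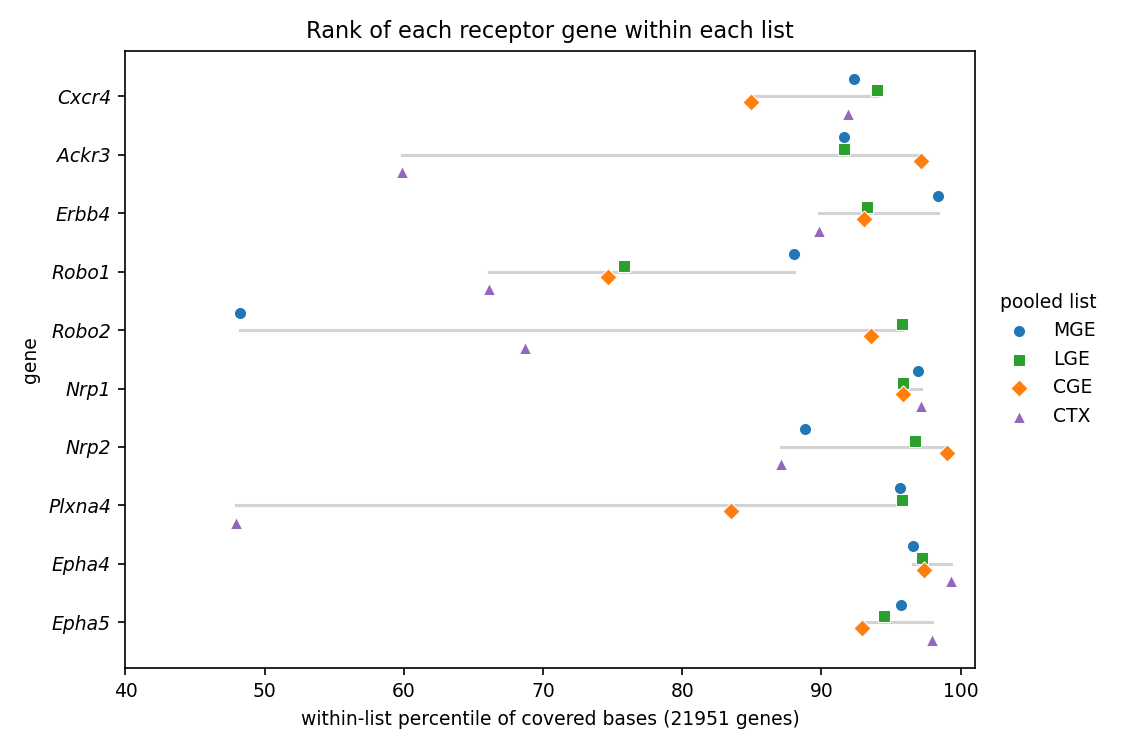
Within-list percentile of covered bases (x axis, from 40) of each receptor gene (y axis), 1 point per pooled list (offset vertically), with a gray line from the lowest to the highest. Nrp1, Epha4 and Epha5 sit above 90 in all 4 lists, and Plxna4, Robo2, Ackr3 and Robo1 have at least 1 list below 70.

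The chemokine receptors differed in how evenly they were marked. Cxcr4 (chr1:128588199-128592293, minus strand), which signals on binding Cxcl12, had a single peak in each list, with 1869 covered bases in the MGE, 2641 in the LGE, 2070 in the CGE and 1890 in CTX. The peaks began 367, 959, 386 and 388 bp upstream of its start, so the wider LGE peak differed from the others mainly on the upstream side. On the downstream side all 4 ended between 1501 and 1683 bp into the gene, over 105 bases of exons and otherwise intron. Its percentile was 92.3 in the MGE, 94.0 in the LGE, 84.9 in the CGE and 91.9 in CTX.

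Ackr3 (chr1:90203980-90216751, plus strand), the receptor that binds and internalizes Cxcl12, had 1824 covered bases in the MGE, 2373 in the LGE, 3582 in the CGE and 937 in CTX. The CGE value was 3.82 times the CTX value, and the difference was smaller when peaks less than 1 kb apart were joined (3582 against 1722 bases) and with windows of 2 kb (2127 against 937) or 1 kb (1127 against 724). Its upstream edge was nearly the same in every list, between 100 and 126 bp before the start, and the regions differed in how far the marking ran into the intron. In the CGE 1 peak reached 3481 bp downstream. In the LGE there was a 1896 bp peak at the start and another of 477 bp that ended 3267 bp downstream, in the MGE a single peak ended at 1697 bp, and in CTX a 724 bp peak at the start was followed by one of 213 bp that ended at 1608 bp. The percentile was 97.2 in the CGE, 91.6 in MGE and LGE and 59.9 in CTX.

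Erbb4 (chr1:68032186-69108059, minus strand), a receptor tyrosine kinase for neuregulins, was the only receptor gene with its most covered bases in the MGE within 5 kb windows. It had 2835 covered bases in the MGE, 2551 in the LGE, 2727 in the CGE and 1757 in CTX. The percentiles were 98.4 in the MGE, 93.3 in the LGE, 93.0 in the CGE and 89.8 in CTX, so that only 352 genes were more covered in the MGE list. The MGE maximum was lost when each list was limited to its 17284 peaks of highest fold, where Erbb4 had 0 bases in the MGE and 2727 in the CGE. In CTX the marking was split into a 1434 bp peak that began 1 bp inside the start and a 323 bp peak from 2091 to 2413 bp downstream, and the latter had a −log10 q of 1.23. Inside the gene its peaks covered up to 385 bases of exon and otherwise intron.

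The Slit receptors had the most clusters of annotated starts, and Robo2 varied more between regions than Robo1. Robo1 (chr16:72308306-73046095, plus strand) had a peak of 1630 bp in the MGE, 1610 bp in the LGE, 1675 bp in the CGE and 1048 bp in CTX. The 3 eminence peaks ended 1455, 1435 and 1445 bp downstream of the main start and the CTX peak at 812 bp, while all 4 began between 174 and 235 bp upstream of it. The percentiles were 88.0, 75.8, 74.7 and 66.1. Because a gene with many starts has more window to be covered, Robo1 was also ranked among the 368 genes that, like it, have 7 clusters of starts, where it lay at 65.4 in the MGE, 43.3 in the LGE, 40.6 in the CGE and 33.0 in CTX. When covered bases were divided by the width of the windows, its percentiles were 45.8, 39.5, 38.9 and 40.1. By that measure the spread was smaller and CTX was not the lowest.

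Robo2 (chr16:73891839-74411825, minus strand) had a peak of 681 bp in the MGE, 2947 bp in the LGE, 2798 bp in the CGE and 1100 bp in CTX. The ratio between LGE and MGE, 4.33, was the largest among the receptor genes within 5 kb windows. With windows of 2 kb that of Nrp2 was larger, from 524 bases in the MGE to 2680 in the CGE. The narrow MGE and CTX peaks of Robo2 ended 138 and 420 bp downstream of its main start and the LGE and CGE peaks at 1737 and 1781 bp. On the upstream side the edges of the MGE and CTX peaks, at 542 and 679 bp, were also nearer to the start than those of the LGE and CGE peaks, at 1209 and 1016 bp. The percentiles were 48.2 in the MGE, 95.8 in the LGE, 93.6 in the CGE and 68.7 in CTX. Among the 176 genes with 8 clusters of starts, as in Robo2, they were 9.66, 79.8, 74.7 and 33.8. The spread was smaller when covered bases were divided by the width of the windows, with percentiles of 36.3, 47.1, 44.0 and 39.1. The narrow peaks ranked higher in fold, with a fold over background of 7.45 in the MGE and 6.47 in CTX, at the 82.3 and 69.0 percentile of their lists, against 3.37 in the LGE and 3.82 in the CGE, at 11.1 and 23.1. Ranked only among peaks of similar width, the gap was smaller, at 56.8 in the MGE and 42.2 in CTX against 23.9 in the LGE and 26.1 in the CGE.

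Both genes have starts far from the marked ones, and among the GENCODE starts of Robo1 the marked one is not the outermost. The promoters shown here, from 250 bases before to 50 after a RefSeq start on GRCm38.p6, are the marked start of Robo1 and of Robo2 and the other 2 RefSeq starts of Robo2, which lie upstream of any GENCODE start and had no peak closer than 145.4 kb in any list. The sequences run 5′ to 3′ on the strand of the gene, with each CpG in capitals.
Robo1 marked start, chr16:72662899-72663198, plus strand: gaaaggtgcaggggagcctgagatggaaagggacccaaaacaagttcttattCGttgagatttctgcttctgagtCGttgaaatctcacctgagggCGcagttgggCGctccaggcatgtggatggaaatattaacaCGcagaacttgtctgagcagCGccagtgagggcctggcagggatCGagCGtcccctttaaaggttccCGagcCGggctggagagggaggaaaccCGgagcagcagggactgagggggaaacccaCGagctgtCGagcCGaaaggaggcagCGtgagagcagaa
Robo2 marked start, chr16:74411776-74412075, minus strand: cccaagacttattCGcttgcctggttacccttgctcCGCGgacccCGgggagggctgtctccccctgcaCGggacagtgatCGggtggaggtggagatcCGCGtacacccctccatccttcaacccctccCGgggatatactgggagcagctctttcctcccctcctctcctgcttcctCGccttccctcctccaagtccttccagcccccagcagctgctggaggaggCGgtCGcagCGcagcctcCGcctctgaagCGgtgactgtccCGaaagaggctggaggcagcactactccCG
Robo2 unmarked start, chr16:75092721-75093020, minus strand: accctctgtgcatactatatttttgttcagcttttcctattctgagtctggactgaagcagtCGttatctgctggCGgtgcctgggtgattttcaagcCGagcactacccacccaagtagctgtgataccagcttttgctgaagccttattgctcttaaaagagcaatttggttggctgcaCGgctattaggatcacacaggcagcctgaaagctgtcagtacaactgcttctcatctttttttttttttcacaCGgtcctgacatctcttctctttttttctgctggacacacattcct
Robo2 unmarked start, chr16:75447244-75447543, minus strand: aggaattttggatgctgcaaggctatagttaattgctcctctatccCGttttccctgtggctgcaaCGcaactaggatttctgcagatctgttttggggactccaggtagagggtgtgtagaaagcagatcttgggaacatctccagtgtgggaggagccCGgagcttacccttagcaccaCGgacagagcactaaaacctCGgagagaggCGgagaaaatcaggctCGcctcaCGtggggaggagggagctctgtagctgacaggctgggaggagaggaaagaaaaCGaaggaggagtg
The marked Robo1 and Robo2 promoters hold 15 and 17 CpGs and the unmarked Robo2 promoters 5 and 9. Their GC content was 57%, 65%, 45% and 53.3% in the order printed. The observed number of CpGs over that expected from the base composition was 0.653, 0.554, 0.335 and 0.447.

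By the span of the within-list percentile, the semaphorin receptors ranged from the steadiest receptor gene, Nrp1, to the most variable, Plxna4. By the ratio of highest to lowest covered bases, the steadiest was Epha5 (1.23, against 1.32 for Nrp1). The most variable by that ratio was Robo2 (4.33, against 4.29 for Plxna4). Ranked among genes with the same number of start clusters, Robo2 also had a larger span (70.2) than Plxna4 (44.4). Nrp1 (chr8:128358604-128503363, plus strand), a co-receptor that binds semaphorin 3A, had 2438 covered bases in the MGE, 2961 in the LGE, 3207 in the CGE and 2520 in CTX. Its percentiles were 97.0, 95.8, 95.8 and 97.2. In every list it was marked mostly upstream of its main start, with 25.8% (CTX) to 37.8% (CGE) of its covered bases downstream. That start is the one of its coding transcript, and non-coding transcripts of the gene begin farther upstream, so that 1585 of the 2438 bases in the MGE, 1585 of 2961 in the LGE, 1891 of 3207 in the CGE and 1330 of 2520 in CTX lay inside the annotated gene. In the MGE a separate peak of 189 bp lay upstream of the one at the start, within the span that the single LGE peak covered.

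Nrp2 (chr1:62703285-62818695, plus strand), the neuropilin that binds semaphorin 3F, had 4636 covered bases in the CGE. Within 5 kb windows this was the most of any receptor gene in any list. With windows of 2 kb Nrp2 had 2680 in the CGE, against 3207 for Nrp1. With windows of 10 kb Epha4 had more there, 5321 against 4636. Within 5 kb Nrp2 had 1665 in the MGE, 3187 in the LGE and 1617 in CTX. In 3 lists this was a pair of peaks, 1 over the start and 1 inside the gene. The start peak was 524 bp wide in the MGE, 796 bp in the LGE and 833 bp in CTX, and the inner peak 1141 bp, 2391 bp and 784 bp, between 1806 and 4196 bp downstream. In the CGE a single peak ran from 262 bp upstream to 4373 bp downstream and spanned both. The percentiles were 88.8 in the MGE, 96.7 in the LGE, 99.0 in the CGE and 87.1 in CTX, and only 215 genes were more covered in the CGE. All 4 lists shared 567 bases of the inner stretch, chr1:62706407-62706973, and the middle 300 bases of it are shown because no annotated start of Nrp2 lies there.
Nrp2 inner peak, chr1:62706541-62706840, plus strand: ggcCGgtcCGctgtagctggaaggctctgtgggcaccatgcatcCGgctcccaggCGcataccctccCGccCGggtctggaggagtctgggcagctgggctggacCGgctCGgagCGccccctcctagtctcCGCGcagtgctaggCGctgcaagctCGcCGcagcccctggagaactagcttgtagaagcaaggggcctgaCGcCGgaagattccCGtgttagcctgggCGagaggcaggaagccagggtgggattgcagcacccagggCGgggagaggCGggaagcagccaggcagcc
The inner stretch is intronic. The 300 bases shown held 20 CpGs at a GC content of 69% and an observed over expected CpG ratio of 0.565, and the whole 567 bases 43 CpGs at 66.8% and a ratio of 0.680.

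Plxna4 (chr6:32144268-32588192, minus strand), the plexin that signals for class 3 semaphorins together with neuropilins, had 2225 covered bases in the MGE, 2955 in the LGE, 2007 in the CGE and 689 in CTX. The LGE value was 4.29 times the CTX value within 5 kb, and the difference was smaller in narrower windows, with 1762 bases in the LGE and 689 in CTX within 2 kb and 762 and 497 within 1 kb. The percentiles were 95.7, 95.8, 83.5 and 47.9, so the gene was among the most covered in MGE and LGE and far lower in the CTX list. Ranked only among genes with a peak, it lay at 93.3 in the MGE, 93.5 in the LGE, 74.5 in the CGE and 18.4 in CTX. Its peaks also differed in position. In the MGE the peak began 441 bp upstream of the annotated start and in the CGE 8 bp upstream, whereas in the LGE it began 239 bp and in CTX 504 bp downstream, so that in those 2 lists the start itself was not covered. The bases shared by all 4 lists were 689 of 3635 covered in any, or 19.0%, the lowest share among the receptor genes. The map of peaks shows these edges.

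**Figure D3:**
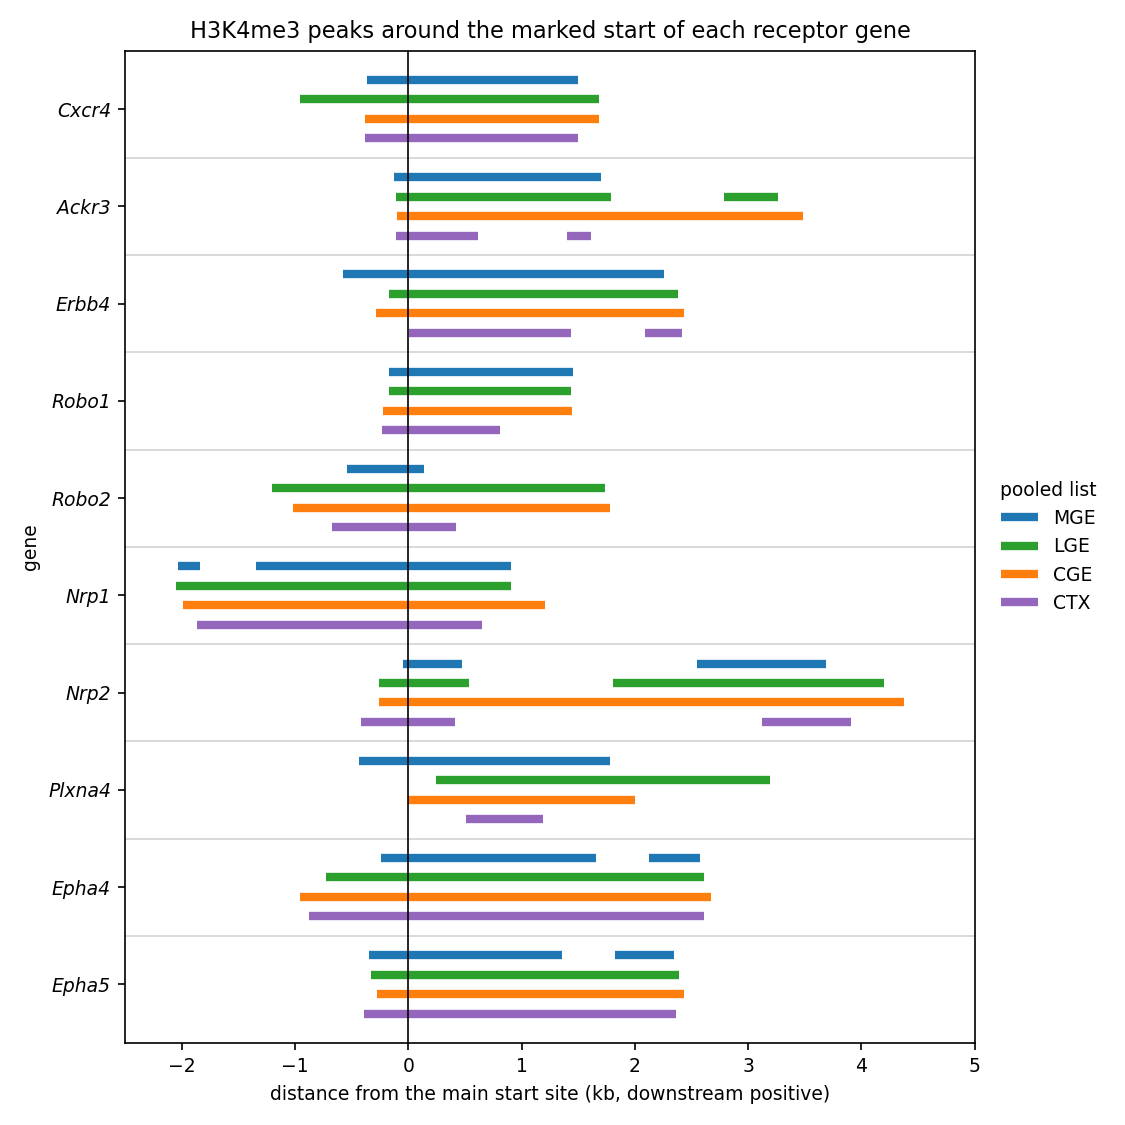
Peaks (bars) within the 5 kb windows of each receptor gene (y axis) in the 4 pooled lists, by distance from the main start (x axis, kb, downstream positive), the outermost start of a coding transcript in the marked cluster. Nrp2 shows paired peaks in MGE, LGE and CTX and 1 peak in the CGE, Robo2 is narrow in MGE and CTX, and the Plxna4 peaks of LGE and CTX begin downstream of the start.

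The ephrin receptors were among the most covered genes in every region. Epha4 (chr1:77367185-77515088, minus strand), which binds ephrins of both the A and B classes, had 2356 covered bases in the MGE, 3345 in the LGE, 3637 in the CGE and 3492 in CTX. Its percentiles were 96.6, 97.2, 97.4 and 99.3, and 158 genes were more covered in CTX. The LGE and CTX peaks ended at the same base, 2614 bp downstream, and the CGE peak at 2674 bp. In the MGE 2 peaks of 1899 and 457 bp took up much of the same span.

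Epha4 also had a peak in an intron in all 4 lists, outside the 5 kb windows. It was 906 bp wide in the MGE, 2544 bp in the LGE, 2634 bp in the CGE and 613 bp in CTX, and began between 8.33 and 8.61 kb downstream of the start. In CGE and CTX its edge also took in 215 and 86 bases of exon. It ranked low in 3 of the lists, at the 30.5, 9.27 and 14.4 percentile of −log10 q in MGE, LGE and CGE, and at 57.9 in CTX, where it was narrowest and its fold was 6.46. A further intronic peak about 17.9 kb downstream was 382 bp wide in the MGE and 305 bp in the LGE and was absent from the CGE and CTX lists. The deposited lists skip 31 (CTX) to 64 (CGE) of the caller's peak numbers, but none of those between the peaks that flank each of the 10 genes. The middle 300 bases of the 456 shared by all 4 lists (chr1:77506021-77506476) are shown for comparison with the start regions.
Epha4 intronic peak, chr1:77506099-77506398, minus strand: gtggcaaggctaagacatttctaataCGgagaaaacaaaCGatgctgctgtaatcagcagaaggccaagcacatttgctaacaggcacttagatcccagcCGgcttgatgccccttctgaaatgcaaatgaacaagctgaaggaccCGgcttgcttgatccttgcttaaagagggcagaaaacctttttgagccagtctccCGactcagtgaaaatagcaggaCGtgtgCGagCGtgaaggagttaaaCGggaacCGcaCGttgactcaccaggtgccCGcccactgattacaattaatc
These 300 bases had 12 CpGs, a GC content of 49.3% and an observed over expected CpG ratio of 0.657, against 64.0% and 0.565 in the 300 bases of the Epha4 promoter. Over the whole shared stretch the ratio was 0.533, so which of the 2 sites was higher in CpG ratio depended on the length taken.

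Epha5 (chr5:84054761-84417382, minus strand), a receptor for A-class ephrins, had 2229 covered bases in the MGE, 2716 in the LGE, 2710 in the CGE and 2752 in CTX. It was the only receptor gene with its most covered bases in CTX, by a margin over LGE and CGE that is small beside the differences seen in other genes and that no replicate error can be set against. Its percentiles were 95.7, 94.5, 92.9 and 98.0. Its lists shared 76.2% of all bases covered in any, the highest share of the 10 genes.

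The 10 genes have 62 annotated transcripts with 48 starts, which form 28 clusters when starts at most 500 bp apart are joined. A peak lay within 500 bp of 10 of the 28 clusters, 1 per gene. Of these, 9 were marked in all 4 lists and that of Plxna4 in 3, its CTX peak lying 504 bp away, just outside the limit. All genes together had 31.0% of 52559 clusters marked in the MGE, 31.8% in the LGE, 32.3% in the CGE and 30.6% in CTX, close to the 10 or 9 of 28 here. The other 18 clusters, 8 with a coding transcript and 10 without, were marked in no list, and each lay more than 5 kb from any peak. The closest had a peak at 16.9 kb and the median distance was 327 kb.

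The unmarked GENCODE starts were spread unevenly over 6 genes. Robo2 had 7, all downstream of the marked start and 5 of them coding, between 383.6 and 511.6 kb away. The unmarked RefSeq starts of Robo2 shown above, which lie upstream of the marked start, are not counted here. Robo1 had 6, of which the 4 downstream ones start non-coding transcripts and the other 2 start coding transcripts, 1 of them 354.8 kb and 1 of them 99.4 kb upstream. The outermost cluster of Robo1 was thus unmarked in all 4 lists while another was marked in all 4. Among 9062 genes with 2 or more clusters and 1 of them marked throughout, 809 (8.93%) had an unmarked outermost cluster. Erbb4 had 2 unmarked non-coding starts 777.8 and 809.7 kb downstream, Plxna4 and Epha5 1 non-coding start each and Epha4 1 coding start 137 kb downstream. Cxcr4, Ackr3, Nrp1 and Nrp2 have a single, marked cluster. The plot of start clusters shows their distances.

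**Figure D4:**
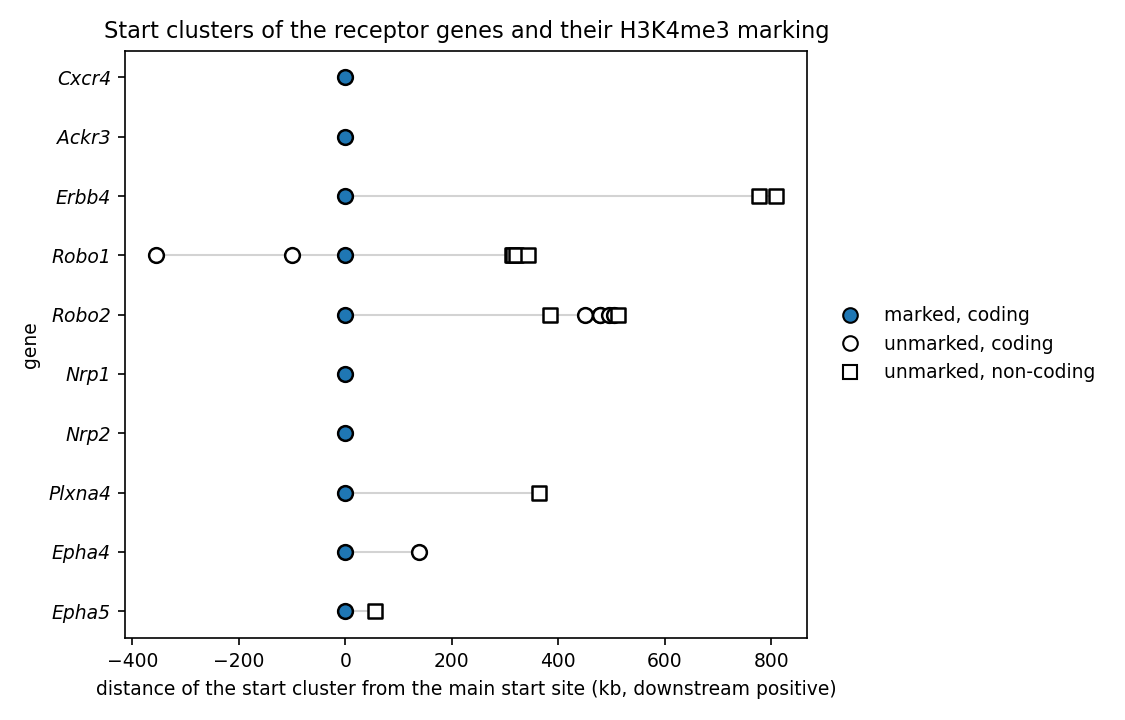
Clusters of GENCODE starts of each receptor gene (y axis) by distance from the main start (x axis, kb, downstream positive). Filled symbols are marked in 3 or 4 lists, open ones in none, and squares start only non-coding transcripts. Each gene has 1 filled symbol, at or near 0, and the Robo1 starts at 354.8 and 99.4 kb upstream are open.

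Marked and unmarked starts of these genes differed in base composition, but the start clusters of other genes were not measured, so the contrast has no background. From 250 bases before to 50 after the outermost start of a cluster, GC content was 54.0% to 74.7% (median 61.8%) in the 10 marked clusters and 28.3% to 51.3% (median 43.3%) in the 18 unmarked ones, ranges that do not overlap. The observed over expected CpG ratio was 0.374 (Ackr3) to 1.00 (Epha5) with a median of 0.756 in marked clusters and 0.0665 to 0.738 with a median of 0.325 in unmarked ones, and these ranges overlap. A ratio above 0.6 was found in 7 of 10 marked and 2 of 18 unmarked clusters, both of the latter non-coding Robo1 starts. Most of the 18 belong to Robo1, with 7 clusters in all, and Robo2, with 8. The 8 unmarked clusters with a coding transcript had 35.7% to 51.0% GC, and the other 10 start only non-coding transcripts. Of 9 receptor genes with RefSeq promoters, 11 starts were matched and 9 were marked. The ratio was above 0.6 in 5 of these 9 marked RefSeq promoters, and in 35.8% of all 32851. Those 32851 were taken whether marked or not, so they are not a like set for the 9. Marked promoters of other genes were not counted.

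Sequence motifs were searched on both strands of the 9 marked RefSeq promoters. The GC box GGGCGG was present in 6 (35.7% of all promoters), CCAAT in 2 (37.4%), TATAAA in 2, Cxcr4 and Ackr3 (13.6%), and TAATTA in 1, Epha5 (5.29%). The shares in brackets are again of all promoters, marked or not. None of the 4 motifs contains another, and a match only describes the window. Of these 9 promoters, those with the lowest and the highest CpG ratio, Ackr3 with 8 CpGs and Epha5 with 30, are shown here in the same format on GRCm38.p6.
Ackr3 marked start, chr1:90203730-90204029, plus strand: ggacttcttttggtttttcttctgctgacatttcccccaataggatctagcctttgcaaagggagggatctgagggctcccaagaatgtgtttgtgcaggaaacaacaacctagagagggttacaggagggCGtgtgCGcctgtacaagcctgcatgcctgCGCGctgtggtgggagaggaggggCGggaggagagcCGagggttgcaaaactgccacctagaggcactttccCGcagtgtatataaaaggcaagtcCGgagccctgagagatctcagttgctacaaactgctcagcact
Epha5 marked start, chr5:84417333-84417632, minus strand: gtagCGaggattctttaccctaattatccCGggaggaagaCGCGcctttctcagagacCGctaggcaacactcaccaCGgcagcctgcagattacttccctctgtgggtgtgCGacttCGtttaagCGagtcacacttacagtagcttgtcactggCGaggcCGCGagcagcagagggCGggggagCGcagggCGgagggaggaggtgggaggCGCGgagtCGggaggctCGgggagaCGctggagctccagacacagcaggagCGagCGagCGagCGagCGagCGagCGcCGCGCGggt
The Ackr3 promoter had 54.0% GC and the Epha5 promoter 64.3%.

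The receptor genes had mostly wide peaks with a fold enrichment below the list median. The widest peak of each gene had a median width percentile among the peaks of its list of 97.0 in the MGE, 96.8 in the LGE, 96.4 in the CGE and 81.8 in CTX. Its fold enrichment was below the list's median in 7 of 10 genes in the MGE, 9 in the LGE, 9 in the CGE and 8 in CTX, with median percentiles of 40.1, 16.6, 26.1 and 39.9. Among peaks within 20% of the same width, the median fold percentile was 20.9, 27.7, 44.2 and 32.4. Robo1 was an exception in all 4 lists, with a fold above the list median each time. Robo2 was above the list median in MGE and CTX, where its peak was narrow, and Cxcr4 in the MGE, as seen in the plot of width against fold. At like width the fold percentile of Robo1 was 48.5 in the MGE, 74.6 in the LGE, 76.9 in the CGE and 54.5 in CTX. For Robo2 it was 56.8 in the MGE and 42.2 in CTX, and for Cxcr4 39.7 in the MGE and 78.6 in the LGE. Also above the median at like width were Epha5 in CTX (54.1) and, in the CGE, Erbb4 (53.3), Plxna4 (52.7) and Epha4 (51.1).

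**Figure D5:**
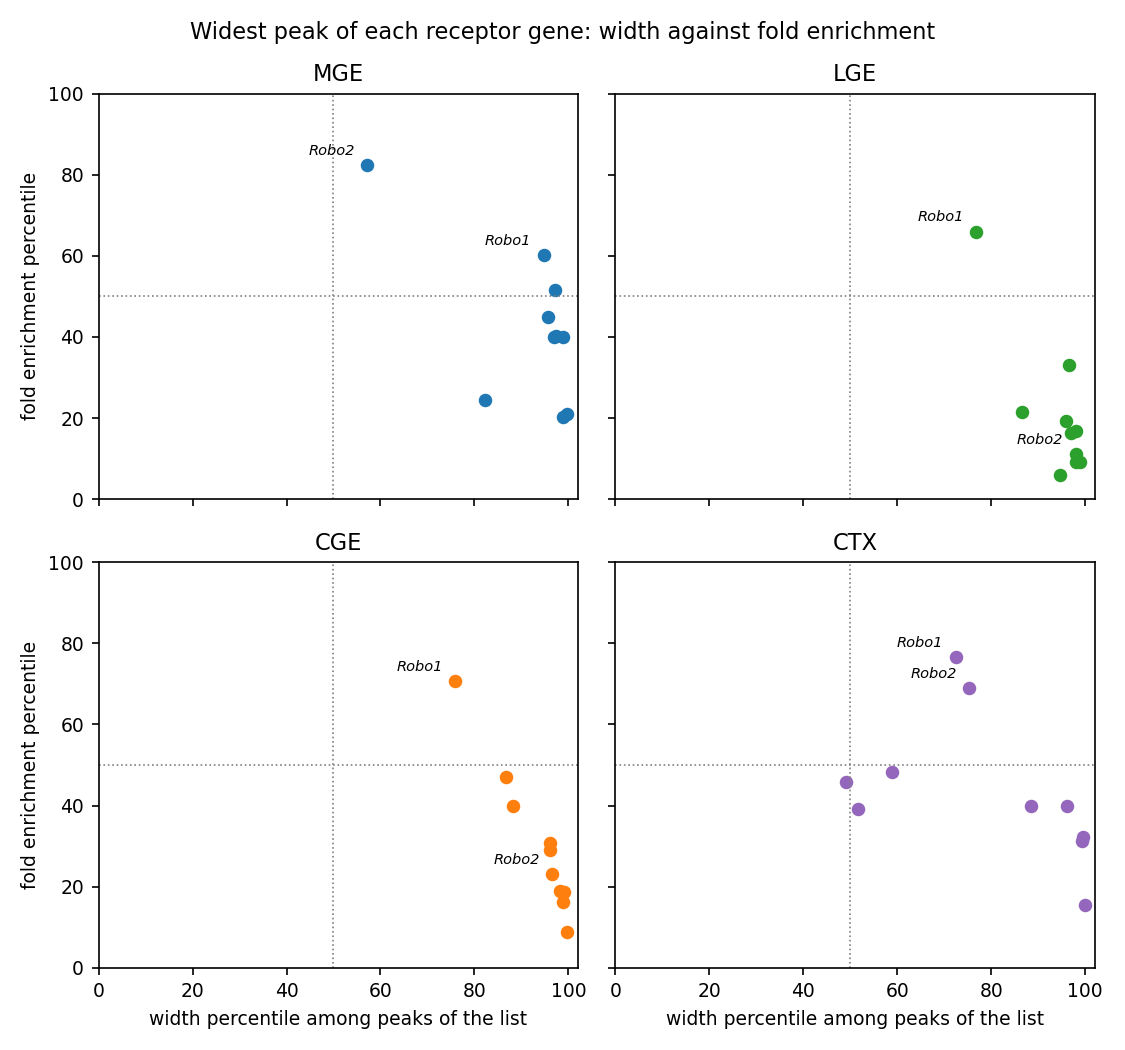
Width percentile (x axis) against fold enrichment percentile (y axis) of the widest peak of each of the 10 receptor genes among all peaks of its list, 1 panel per pooled list, with dotted lines at 50. Most points lie at the lower right, and Robo1 lies above 50 in every panel.

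Some of the marking was broken into pairs of peaks. Exactly 2 peaks were found at 4 receptor genes in the MGE (Nrp1, Nrp2, Epha4 and Epha5), 2 in the LGE (Ackr3 and Nrp2), none in the CGE and 3 in CTX (Ackr3, Erbb4 and Nrp2). Among all genes with a peak, 19.0% had exactly 2 in the MGE, 13.9% in the LGE, 14.4% in the CGE and 17.3% in CTX. In each gene with a pair in the MGE, the single CGE peak covered the gap. Most covered bases lay downstream of the main start in 8 genes in the MGE, 9 in the LGE, 9 in the CGE and 8 in CTX, the exceptions being Nrp1 in every list and Robo2 in MGE and CTX. Both annotated genes begin upstream of the main start, and counted from the 5′ end of the gene most of the bases lay inside in these cases too. Of the 4033 genes with a single start cluster and a peak in every list, 75.0%, 77.8%, 78.0% and 75.3% were mostly covered downstream, close to the counts here. The median downstream share was 82.3%, 88.6%, 87.9% and 78.5% in MGE, LGE, CGE and CTX, and 71.4%, 71.0%, 70.1% and 71.1% over those 4033 genes.

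The ligands and co-receptors of the same pathways were read from a list of 66 partner genes. Of these, 61 had a peak in all 4 lists, 4 in some and 1 in none. The one in none was Hgf, hepatocyte growth factor, a motogen for interneurons. Robo4, an endothelial Robo, was marked in the CGE (679 bases) and CTX (448) only, and Sema3g in the CGE (394) and CTX (127) only. Gdnf, a growth factor that attracts MGE cells, had 1050 bases in the MGE, 2224 in the LGE and 2271 in the CGE, at percentiles of 67.7, 89.6 and 88.2, and no peak in CTX. Epha8 had 268, 428 and 1690 bases in MGE, LGE and CGE, at percentiles of 37.9, 37.0 and 75.2, and no peak in CTX.

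The partner genes had lower median percentiles of covered bases than the receptor genes. Per base of window the receptor medians were 90.1 in the MGE, 90.7 in the LGE, 87.6 in the CGE and 87.7 in CTX. The partners were not ranked that way, so the 2 groups can be compared by covered bases only. By covered bases, the median percentile of the 66 partners was 83.5 in the MGE, 87.0 in the LGE, 87.8 in the CGE and 82.9 in CTX. The 28 ligands among them lay at 80.6, 88.3, 89.8 and 80.3 and the 38 receptors and other partners at 84.9, 85.0, 87.2 and 83.9. The most covered gene over the 4 lists was Cxcl14 of the chemokines, Nrg1 of the neuregulins and their receptors, Slit2 of the Slits, Robos and their effectors, Sema3f of the semaphorins, plexins and adhesion co-receptors, Efnb1 of the ephrins and Eph receptors, and Ntn1, netrin 1, of the remaining guidance genes. Cxcl12, the ligand of both Cxcr4 and Ackr3, had 774 covered bases in the MGE, 1185 in the LGE, 1286 in the CGE and 1049 in CTX, while its percentile was highest in CTX, at 52.8, 57.2, 57.7 and 66.2 in the same order. Nrg1, the ligand of Erbb4, had 3792, 6048, 7481 and 4206, over 3 peaks in each list, with percentiles of 99.6, 99.8, 99.9 and 99.7. Slit2, a ligand of Robo1 and Robo2, had 3469, 3606, 3570 and 3146, with a percentile that spanned 2.26 points where that of Robo2 spanned 47.5. Sema3a, the ligand of Nrp1, had 959, 2029, 2395 and 827, with percentiles of 62.8, 86.5, 89.8 and 54.5. Sema3f, that of Nrp2, had 2151, 3446, 3606 and 1861, with percentiles of 95.2, 97.5, 97.3 and 91.5. Efnb1 had 3420, 5454, 3954 and 3285, with percentiles of 99.3, 99.7, 98.1 and 99.0.

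The genes closest in pattern to the 2 receptor genes whose percentile varied most were found by the distance between their 4 percentiles. For Plxna4 they were Mest, Osbp2 and Cbfa2t3, at distances of 8.71, 9.36 and 10.6 percentile points. Mest had 1615 covered bases in the MGE, 3333 in the LGE, 2112 in the CGE and 738 in CTX, at percentiles of 87.7, 97.2, 85.7 and 50.2. For Robo2 they were Hmgb3, Col11a1 and Shroom2, at 3.88, 6.39 and 7.57 points, and Hmgb3 had 667, 2531, 2485 and 1105 bases, at percentiles of 47.6, 93.1, 90.8 and 68.9.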

How the data were processed

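Per the labels and the methods of the study, the authors aligned the CUT&Tag reads with Bowtie2 to GRCm38/mm10, removed blacklisted regions, removed duplicates with Picard, merged the replicates of a region with SAMtools, repeated the removal of duplicates and ran MACS for broad peaks. The MACS version, threshold and control are not given in the sources used here. The deposited lists hold peak positions, a score, the fold enrichment (a ratio over the background the caller estimated), −log10 p and −log10 q, all as written by the authors' caller. Fold and −log10 q were compared as ranks within a list. Where a fold or −log10 q itself is printed it is the caller's own value, whose scale may differ between lists. An alternative set a minimum −log10 q, and the score and −log10 p columns were not used.

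All intervals are 1-based. Transcript starts came from GENCODE M21 on the same build. Covered bases are peak bases within 5 kb of any annotated start. Starts at most 500 bp apart were joined in a cluster, and a cluster was called marked by a peak within 500 bp. A within-list percentile is the mid-rank among 21951 protein-coding genes. The genes named are the 10 receptor genes, the partner genes with a peak in some lists or none, the most covered partner of each family, and the 3 genes nearest to each of the 2 receptor genes whose percentile varied most. Cxcl12 and Sema3a, ligands of receptor genes, were added outside this rule after their values had been seen, and marker genes come from lists of markers of the regions and of other cell types. The members and lists were chosen with earlier results of these data known. Computations used Python 3.11.15, NumPy 2.4.6 and pandas 2.3.3, and figures Matplotlib 3.10.9. The interval arithmetic was checked against base-by-base counting on simulated intervals (200 runs). All values describe 4 pooled lists, so no test between regions was made and no p-value is given. The reads under each peak are not known, so no interval could be set on a peak's edges. Windows, start sets, cluster distances, peak filters and other percentiles were varied, and RefSeq starts, and the peak filters for the region with most covered bases, were added after the data had been seen. The value of 1 marker gene of another cell type is not reported here.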

Additional observations from a re-analysis of the deposited data

How the results depend on the processing

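No paired analysis was possible because every deposited list pools the replicates of its region, and for the same reason no replicate could be left out. The number of receptor genes with a peak stayed at 10 in every list under windows of 1, 2 and 10 kb, coding transcripts only, a −log10 q of at least 2, a width of at least 250 bp and equal list sizes by width. It was 9 in each list with the 5′ end of the gene only, where Robo1 was lost, and 7 in MGE and 9 in CTX with the 17284 peaks of highest fold in each list, where Erbb4, Nrp1 and Nrp2 lost their MGE peaks and Epha4 its CTX peak. Joining starts at most 100 bp apart split the marked clusters into 20 of 38 in MGE, LGE and CGE and 19 in CTX. All other settings, including the RefSeq starts added after the data had been seen, gave 7 to 10 marked clusters. The region with the most covered bases was the same for 10 of 10 genes by widest peak, with a 10 kb window and with coding transcripts only, for 9 with a 2 kb window and with the 5′ end only, for 9 with the peaks of highest fold and 10 with the other 3 peak filters (chosen after seeing the data for this result), for 8 with a 1 kb window and for 7 by percentile. By percentile, MGE had 2 genes, LGE 3, CGE 2 and CTX 3. MGE had 3 genes with the 1 kb window, 2 with the 2 kb window and 0 with the peaks of highest fold, where Erbb4 was highest in the CGE. The median percentile of the receptor genes was 90.8, 92.4, 89.6 and 81.9 in MGE, LGE, CGE and CTX among genes with a peak and 90.1, 90.7, 87.6 and 87.7 per base of window. Single genes moved more, Ackr3 in CTX from 59.9 to 37.2 and Robo2 in MGE from 48.2 to 20.4 among genes with a peak, and Robo2 in LGE from 95.8 to 47.1 and Erbb4 in LGE from 93.3 to 68.3 per base of window. Of the 40 covered-base values, 17 moved by over 1.5 times with the 1 kb window and 6 with the 2 kb window, and 1 did so when peaks less than 1 kb apart were joined (Ackr3 in CTX, from 937 to 1722). The list sizes ranged from 17284 to 25339 peaks. The depths in the study's methods are greater for each CGE replicate than for either MGE replicate. The part that the depth of each pool had in the position of peak edges was not tested.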

Other observations

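Some peaks lay inside the receptor genes but more than 5 kb from every annotated start. MGE held 7 in 6 genes, LGE 3 in 2 genes, CTX 2 in 2 genes and CGE 1. The same count was not made over all genes, so these numbers have no background to be set against. Beside the Epha4 peaks described above, Nrp2 held a peak about 92.4 kb downstream of its start in 3 lists, all of it in exons of coding transcripts. It was 206 bp wide in MGE, 406 bp in LGE and 133 bp in CTX, and CGE had none there. Its −log10 q was 1.71 in MGE, 5.13 in LGE and 3.12 in CTX, at the 21.8, 16.6 and 26.5 percentile of the lists' peaks. Ackr3 held a 320 bp peak 5.06 kb downstream, Erbb4 a 133 bp peak 76.1 kb downstream, Robo1 a 339 bp peak 296 kb downstream and Plxna4 a 129 bp peak 441.8 kb downstream, all in MGE alone, the list with the most and the narrowest peaks. Their −log10 q values were 1.54, 4.05, 2.04 and 1.05 in that order.

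Other transcripts start in the windows of 3 of the receptor genes. The miRNA gene Mir1903 starts 43 bp upstream of the main start of Nrp1, the lincRNA Gm28386 starts on the opposite strand 192 bp upstream of Epha4, and the sense intronic transcript Gm16076 starts 1319 bp inside Erbb4. The peaks at these 3 starts cannot be assigned to one transcript or the other from the lists.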
